A study of Mus musculus with 4 samples.

Results

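Respiratory complex I genes were followed in mouse bone marrow across 4 expression arrays. The members are the 43 genes whose symbol in the platform's gene table starts with Nduf, the gene prefix of the NADH to ubiquinone oxidoreductase, and that have a transcript cluster, the set of probes the array reads as 1 transcript, naming no other gene. They were taken from 30145 genes with such a cluster. By role they comprise 6 core subunits, 30 accessory genes and 7 assembly factors (Ndufaf). Clusters that name more than 1 gene were left out, and they hold Ndufa11 and Ndufb4. No member has a second single-gene cluster. Of the 43 members, 42 have a mean log2 level that reaches 5.235, which is the middle value over the clusters of the array and serves here as the floor for a gene to count in the background. The member under it is Ndufa4l2.

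The study compared marrow RNA of control mice, mice given cisplatin (a platinum drug that crosslinks DNA), mice treated with astragalus membranaceus (a medicinal plant, below astragalus) and mice treated by electro-acupuncture (current passed through acupuncture needles), with 1 array for each. Treatment lasted 2 weeks, tibia marrow was spun out, and per the series' design text 6 marrow samples were mixed, read here as 6 per group. The labels do not name strain, sex, age or doses, and whether cisplatin was also given to the mice on astragalus or electro-acupuncture is not said. Each array is therefore a single pool of whole marrow, the spread between animals is not measured, and no test or p-value can be given. All levels and differences below are on the deposited log2 scale. In whole marrow, fewer cells of a type and less RNA per cell cannot be told apart.

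Complex I is the entry point of the mitochondrial respiratory chain. It takes electrons from NADH, passes them along iron-sulfur clusters to ubiquinone in the inner membrane, and pumps protons that ATP synthase later uses. The core subunits carry out the chemistry and have relatives in bacteria. Accessory subunits form a shell around them, and assembly factors help to build the complex and are absent from the finished enzyme. Its subunits come from nuclear genes and from mitochondrial DNA. In marrow, blood stem cells lean on glycolysis, while dividing and maturing progenitors, including red cell precursors that make heme in their mitochondria, use respiration more.

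The 4 arrays had close medians over all clusters, from 5.15 in astragalus to 5.31 in electro-acupuncture, but the astragalus array was stretched: 7.20 lay between its 5th and 95th percentiles, against 6.80 to 6.83 on the other 3. Strong signals were therefore higher and weak signals lower on it. For that reason differences are given as deposited and, where it matters, after removal of the lowess trend of the difference against level over all 16893 genes at or above the floor. Removing it took the genes at least 1.5-fold different between astragalus and control from 2457 higher and 1110 lower to 1561 higher and 1400 lower. Of marrow markers, all 7 of the neutrophil list reached the floor, and of 6 skeletal muscle markers 3 did.

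Most complex I genes had their lowest level in the control array. That was so for 38 of the 42 members at or above the floor, made up of 6 of 6 core genes, 26 of 29 accessory genes and 6 of 7 assembly factors. Over all genes at or above the floor, control was the lowest array for 32.7%, and for 39.3% of those at or above the 75th percentile of all clusters (a level of 6.63), which 37 members reach. The exceptions were Ndufb2, Ndufb5 and Ndufaf3, lowest in cisplatin, and Ndufv3, lowest in electro-acupuncture. The same 38 members were lowest in control after quantile normalization of the 4 arrays, which added Ndufb5, and after centring each array on its median. With the lowess trend removed 37 of them were, Ndufab1 being the exception. Of all 43 members, Ndufa4l2 included, the highest array was astragalus for 26 (34.7% of all genes, and 50.4% of those at or above the 75th percentile), electro-acupuncture for 15 (21.6% and 12.3%) and cisplatin for 1, with 1 tie. This second order is not stable: quantile normalization put astragalus highest for 17 members and electro-acupuncture for 22, and median centring put astragalus highest for 39.

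**Figure D1:**
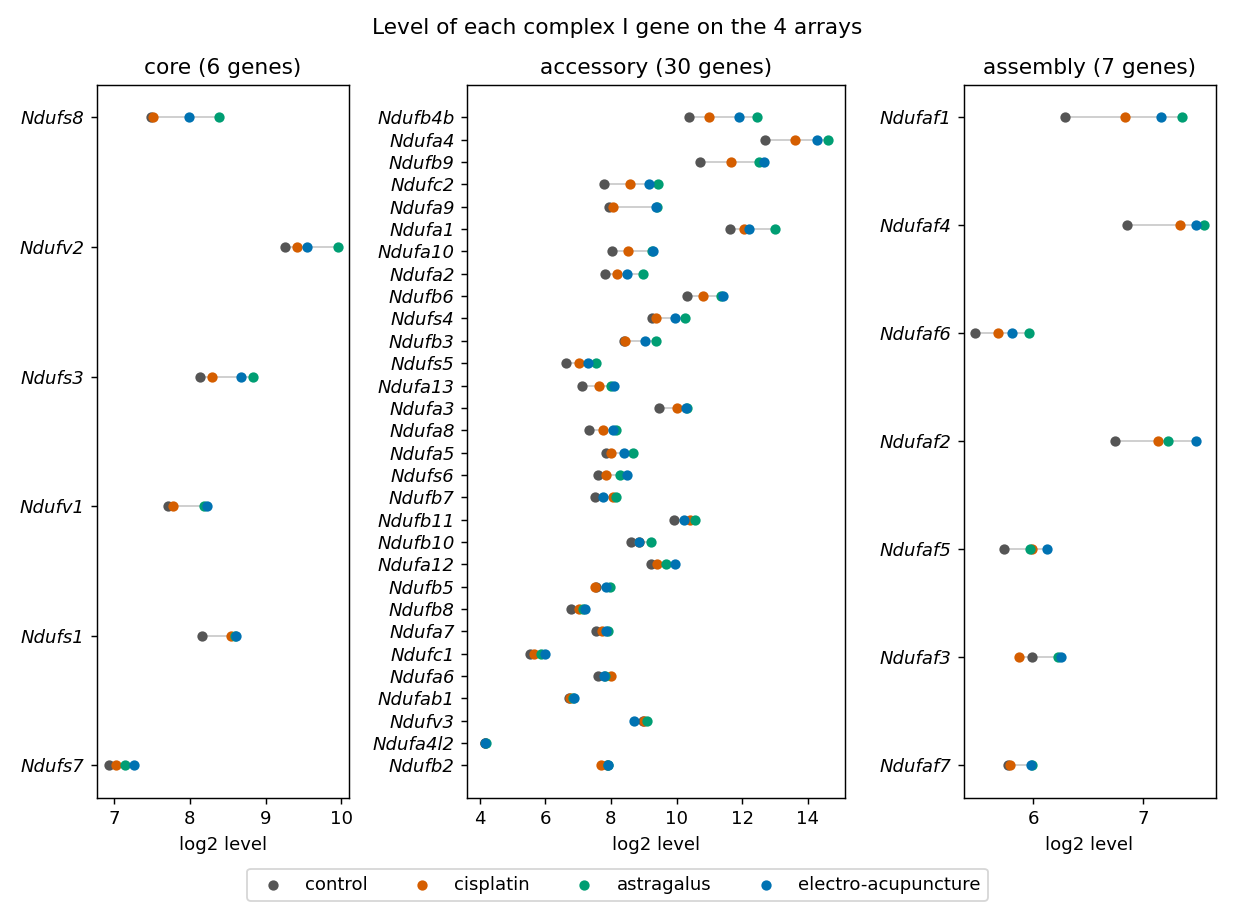
Log2 level of each of the 43 genes (x axis) on the control, cisplatin, astragalus and electro-acupuncture arrays, 1 point per array, with genes in rows by class and ordered by the astragalus minus control difference. Levels of different genes come from different probes and are not comparable with each other; within a row the control point is the lowest for 38 of the 42 genes at or above the floor.

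Against control, the median member was 0.24 higher with cisplatin, 0.65 higher with astragalus and 0.53 higher with electro-acupuncture, where the medians of all genes at or above the floor were 0.01, 0.05 and 0.04. At least 1.5-fold higher in cisplatin than in control were 4 members, close to the background, since 7.16% of all genes were; they are Ndufb9, Ndufa4, Ndufc2 and Ndufb4b. In astragalus 25 members reached this size (14.5% of all genes) and in electro-acupuncture 20 did (11.2% of all genes). Among genes at or above the 75th percentile the background was 11.0%, 24.1% and 16.6% in the same order. At least 2-fold higher were 0 members in cisplatin (2.03% of all genes), 11 in astragalus (6.21%) and 7 in electro-acupuncture (4.19%). No member was 1.5-fold lower in any of the 3 comparisons, where 4.19%, 6.57% and 6.88% of all genes were. The 3 comparisons share the control array, so a level that is low on that array alone enters all of them.

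With the level trend removed, the median member differed from control by 0.23 with cisplatin, 0.46 with astragalus and 0.50 with electro-acupuncture. At least 1.5-fold higher were then 3, 16 and 19 members, beside 6.32%, 9.24% and 9.42% of all genes. At least 2-fold higher were 0, 5 and 6 members, beside 1.56%, 3.01% and 3.17% of all genes, so the astragalus count fell from 11 to 5. Members with higher levels had larger differences: across all 43 genes, which share the same 4 arrays, the astragalus difference from control correlated with the mean level at r = 0.72, against 0.30 over all genes at or above the floor. In electro-acupuncture, whose array was not stretched, this r was 0.58 (0.10 over all genes), and in cisplatin 0.57 (0.17 over all genes). Each difference and the mean level use the same arrays, so these values describe the genes and are not a test.

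**Figure D2:**
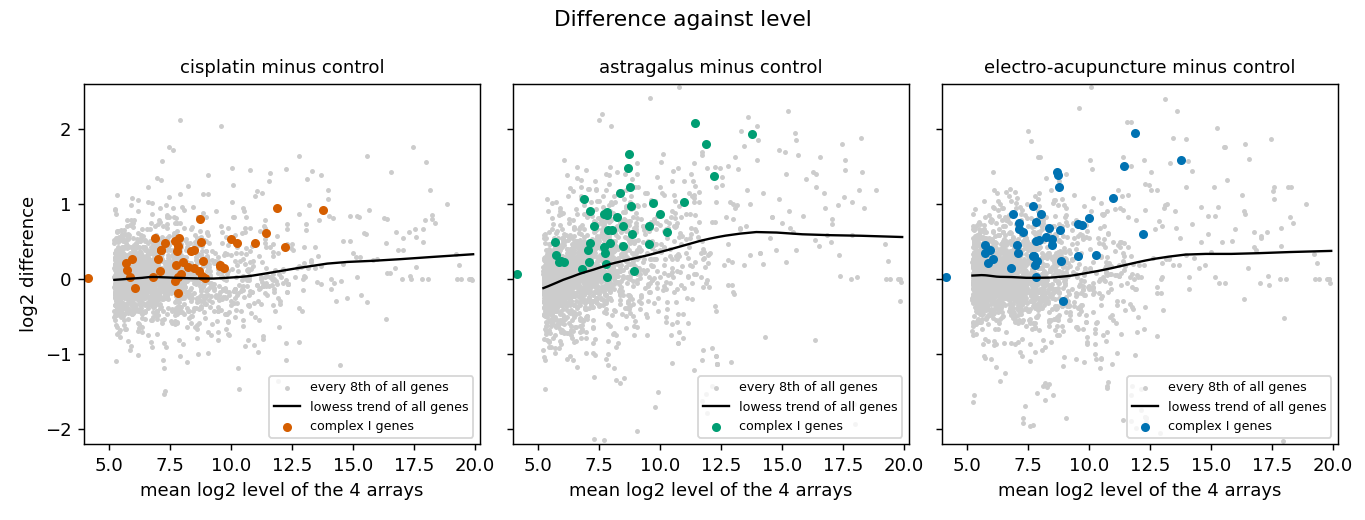
Log2 difference from control (y axis) against the mean log2 level of the 4 arrays (x axis) for cisplatin, astragalus and electro-acupuncture; coloured points are the 43 complex I genes, grey points every 8th of the genes at or above the floor, and the line is the lowess trend of all of them. The trend climbs with level most in astragalus, and 41 of 43 complex I genes lie above it there and in electro-acupuncture. Ndufa4l2, under the floor where no trend was fitted, is counted against the end value of the trend. It counts as above in astragalus and as below in electro-acupuncture.

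The comparisons with cisplatin do not use the control array, but they share the cisplatin array. The median member was 0.37 higher in astragalus than in cisplatin and 0.32 higher in electro-acupuncture than in cisplatin. At least 1.5-fold higher were 12 members in astragalus (9.39% of all genes) and 9 in electro-acupuncture (5.88% of all genes). With the trend removed these counts were 5 (4.43%) and 6 (5.06%), with medians of 0.23 and 0.30. Astragalus and electro-acupuncture lay close to each other, with a median difference of 0.05 as deposited and -0.05 after trend removal, so their order depends on the scaling. As deposited, only Ndufa1 was at least 1.5-fold higher in astragalus than in electro-acupuncture, beside 5.68% of all genes. None of the members was 1.5-fold lower, where 672 of 16893 genes were. With the trend removed no member passed 1.5-fold in either direction, beside 2.29% of all genes higher and 684 of 16893 lower.

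**Figure D3:**
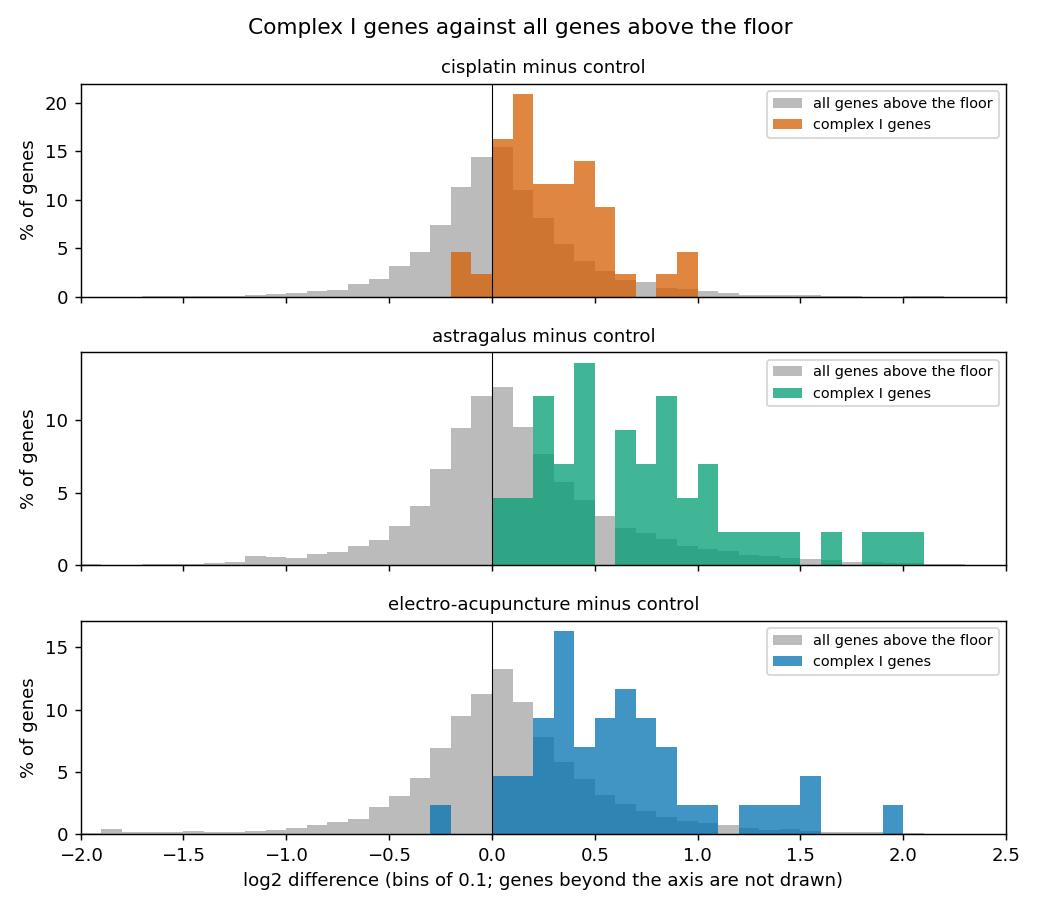
Share of genes in percent (y axis) in bins of the log2 difference from control (x axis) for the 43 complex I genes in colour and all 16893 genes at or above the floor in grey, for cisplatin, astragalus and electro-acupuncture. The complex I genes sit to the right of the centre of all genes, with medians of 0.24, 0.65 and 0.53.

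Among the core subunits, the differences from control were of moderate size. Ndufv1, which binds NADH and the flavin that takes its electrons, was at 7.71 in control, 7.78 with cisplatin, 8.19 with astragalus and 8.23 with electro-acupuncture. Its neighbour Ndufv2, an iron-sulfur subunit, was at 9.25 in control, 9.42 with cisplatin, 9.95 with astragalus and 9.55 with electro-acupuncture. For Ndufv1 control and cisplatin lay together under the other arrays, while for Ndufv2 astragalus stood above the other 3. Ndufs1, a large subunit that carries part of the iron-sulfur chain, was at 8.16 in control and at 8.55, 8.60 and 8.61 in cisplatin, astragalus and electro-acupuncture. For this gene the 3 other arrays lay together, 0.39 to 0.45 above control.

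The remaining core genes lie at the foot of the hydrophilic arm, where ubiquinone is reduced. Ndufs3 was at 8.14 in control, 8.29 with cisplatin, 8.84 with astragalus and 8.67 with electro-acupuncture. Ndufs8, which holds a pair of iron-sulfur clusters, was at 7.49 in control, 7.52 with cisplatin, 8.38 with astragalus and 7.99 with electro-acupuncture. In both genes cisplatin stayed near control, and the astragalus difference from control was 0.70 for Ndufs3 and 0.89 for Ndufs8, the largest of the core. Ndufs7, which holds the last cluster before ubiquinone, had the smallest astragalus difference of the core, at 6.93, 7.03, 7.15 and 7.27 in control, cisplatin, astragalus and electro-acupuncture. The core median against control was 0.13 with cisplatin, 0.59 with astragalus and 0.48 with electro-acupuncture, and with the trend removed 0.11, 0.33 and 0.46. Of the 6 core genes 0, 3 and 0 were at least 1.5-fold higher, beside 7.16%, 14.5% and 11.2% of all genes. With the trend removed 0, 1 (Ndufs8) and 0 were, beside 6.32%, 9.24% and 9.42% of all genes.

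The accessory genes held the largest differences and the widest spread. Their median against control was 0.32 with cisplatin, 0.84 with astragalus and 0.66 with electro-acupuncture, and with the trend removed 0.27, 0.54 and 0.63. At least 1.5-fold higher were 4, 20 and 17 of the 30 genes, beside 7.16%, 14.5% and 11.2% of all genes. At least 2-fold higher were 0, 10 and 7, beside 2.03%, 6.21% and 4.19%. With the trend removed 3, 14 and 16 passed 1.5-fold, beside 6.32%, 9.24% and 9.42% of all genes. Past 2-fold were then 0, 5 and 6, beside 1.56%, 3.01% and 3.17%. Ndufb9, a membrane arm subunit that binds the mitochondrial acyl carrier protein, was at 10.72 in control, 11.66 with cisplatin, 12.52 with astragalus and 12.66 with electro-acupuncture. Control was lowest and cisplatin in between, and the differences from control correspond to 1.92-fold, 3.48-fold and 3.84-fold.

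Ndufc2, a small subunit of the membrane arm, was at 7.78 in control, 8.58 with cisplatin, 9.45 with astragalus and 9.17 with electro-acupuncture. Like Ndufb9 it lay at an intermediate level in cisplatin, 0.80 above control. Ndufa9, which sits where the arms meet and binds a nucleotide cofactor, was at 7.94 in control, 8.05 with cisplatin, 9.42 with astragalus and 9.37 with electro-acupuncture. It showed another shape, with control and cisplatin 0.11 apart and the other 2 arrays 1.32 to 1.37 above cisplatin, the largest difference from cisplatin of any member in electro-acupuncture and the second in astragalus. Ndufb4b, a gene copy related to the membrane arm gene Ndufb4, was at 10.38 in control, 10.99 with cisplatin, 12.45 with astragalus and 11.89 with electro-acupuncture. It had the largest astragalus difference of all members, 2.07 as deposited and 1.58 after trend removal. The Ndufb4 cluster names several genes, and signal from related copies cannot be separated here.

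Ndufa4 was long counted in complex I and is now placed in complex IV, cytochrome c oxidase. Its levels were 12.69 in control, 13.61 with cisplatin, 14.62 with astragalus and 14.27 with electro-acupuncture, with control lowest and astragalus highest. Its paralog Ndufa4l2, known as a gene that hypoxia induces, was at 4.15, 4.16, 4.21 and 4.17 in the same order, under the floor, where no difference can be read. Leaving both out kept the accessory medians at 0.32, 0.84 and 0.66.

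Of the accessory genes with the lowest differences, Ndufb2, a membrane arm subunit, was at 7.89 in control, 7.70 in cisplatin and 7.92 in both astragalus and electro-acupuncture. Ndufv3, which sits beside Ndufv1 and Ndufv2, was at 8.99 in control, 0.01 above that with cisplatin, at 9.10 with astragalus and at 8.70 with electro-acupuncture, the only member lower in electro-acupuncture than in control as deposited; under median centring Ndufb2 and Ndufa4l2 were lower too. Under quantile normalization and after trend removal Ndufb2 and Ndufv3 were lower in astragalus than in control. Ndufb5 was at 7.55 in control, 7.52 with cisplatin, 7.98 with astragalus and 7.86 with electro-acupuncture, and its small cisplatin difference changes sign under quantile normalization. Ndufb7, in contrast, had the fifth largest cisplatin difference of the class. It was at 7.52 in control, 8.06 with cisplatin, 8.17 with astragalus and 7.76 with electro-acupuncture, so here electro-acupuncture lay 0.30 under cisplatin. Ndufab1, the acyl carrier protein itself, spanned 6.73 in control to 6.87 in electro-acupuncture, although its partner Ndufb9 was among the members with the largest differences.

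As deposited, the other accessory genes were all higher than control on each of the other 3 arrays. That follows from their choice, which set apart Ndufb2, Ndufb5 and Ndufv3, the only accessory genes lower than control on any array as deposited. The cisplatin difference of Ndufab1, 0.02 as deposited, turned negative with the trend removed. Of the 20 other accessory genes, 14 were at least 1.5-fold higher in astragalus (14.5% of all genes) and 12 in electro-acupuncture (11.2%). In cisplatin 0 were (7.16%), which the choice fixed in advance, since it set apart every accessory gene past 1.5-fold there. The choice shapes the astragalus and electro-acupuncture counts too, and those of the whole class are given above. The highest cisplatin difference left among the 20 genes was 0.53 (Ndufa3). Ndufa1, a membrane arm subunit encoded on the X chromosome, was at 11.62 in control, 12.05 with cisplatin, 12.99 with astragalus and 12.22 with electro-acupuncture. Astragalus stood above the rest by 0.77 or more for this gene. Ndufs4, which helps to hold the NADH-binding module in place, was at 9.24, 9.38, 10.25 and 9.96 in control, cisplatin, astragalus and electro-acupuncture. Ndufa10, an accessory subunit with a fold like that of nucleoside kinases, was at 8.04, 8.53, 9.26 and 9.27 in the same order. Ndufa6, which like Ndufb9 binds the acyl carrier protein, was the only member with its highest level in cisplatin, at 7.99 against 7.62 in control, 7.82 in astragalus and 7.80 in electro-acupuncture.

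By place in the enzyme, the 15 genes of the hydrophilic arm, which reaches into the matrix, and the 18 of the membrane arm, which pumps protons, were compared as groups. Against control the hydrophilic arm had medians of 0.16 with cisplatin, 0.65 with astragalus and 0.52 with electro-acupuncture. The membrane arm had 0.46, 0.87 and 0.66. At least 1.5-fold higher were 0, 8 and 5 genes of the hydrophilic arm and 3, 14 and 11 of the membrane arm. Of all genes 7.16%, 14.5% and 11.2% were. With the trend removed the counts were 0, 5 and 5 and 2, 9 and 10, beside 6.32%, 9.24% and 9.42% of all genes. With the trend removed the medians were 0.15, 0.38 and 0.50 for the hydrophilic and 0.43, 0.62 and 0.63 for the membrane arm. The ranges of the arms overlapped throughout: in astragalus, hydrophilic genes ran from 0.11 to 1.48 and membrane genes from 0.03 to 2.07. Whether the arms differ was not tested.

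**Figure D4:**
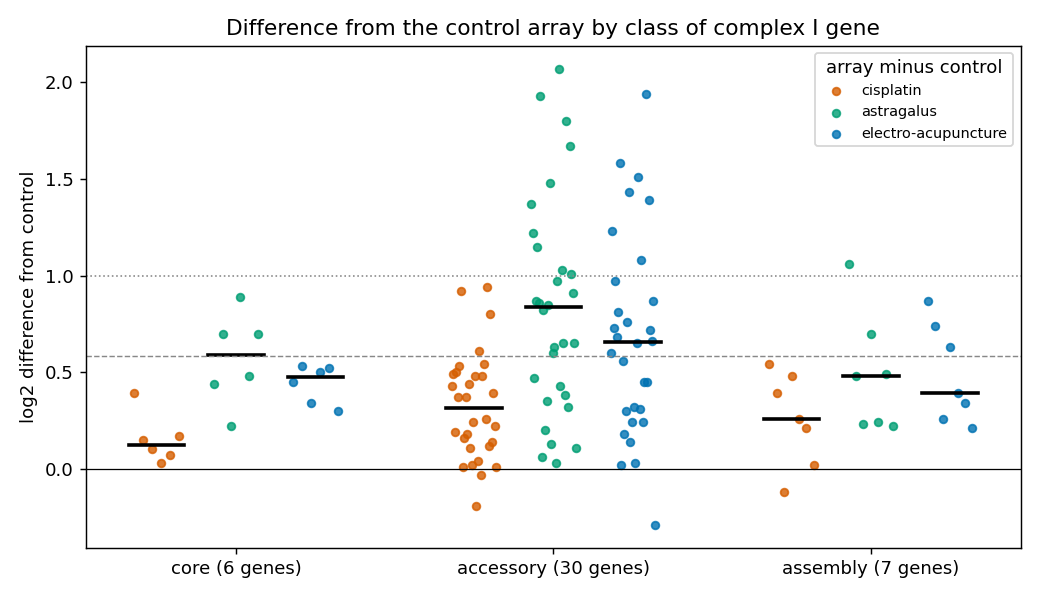
Log2 difference from control (y axis) of the 6 core, 30 accessory and 7 assembly genes in cisplatin, astragalus and electro-acupuncture, 1 point per gene, with a black bar at the median; the dashed line marks 1.5-fold and the dotted line 2-fold. The accessory genes spread most, from 0.03 to 2.07 in astragalus.

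Among the assembly factors, Ndufaf1 and Ndufaf4 differed most from control in astragalus. Ndufaf1, a chaperone of the membrane arm intermediate, was at 6.29 in control, 6.83 with cisplatin, 7.35 with astragalus and 7.16 with electro-acupuncture, or 2.08-fold above control in astragalus. Ndufaf4, which works on the module that reduces ubiquinone, was at 6.85, 7.33, 7.55 and 7.48, and its partner Ndufaf3 at 5.99, 5.87, 6.22 and 6.25 in control, cisplatin, astragalus and electro-acupuncture. The partners did not run in parallel: cisplatin was 0.48 above control for Ndufaf4 and 0.12 under it for Ndufaf3. Ndufaf2, a paralog of Ndufa12 that acts late in assembly, was at 6.74 in control, 7.13 with cisplatin, 7.22 with astragalus and 7.48 with electro-acupuncture, the largest electro-acupuncture difference of the class after that of Ndufaf1.

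The other assembly factors had weak signals. Ndufaf5, which hydroxylates an arginine of Ndufs7, was at 5.73 in control, 5.99 with cisplatin, 5.97 with astragalus and 6.12 with electro-acupuncture. Ndufaf6 was at 5.47, 5.68, 5.96 and 5.81, and Ndufaf7, a methyltransferase, at 5.77, 5.79, 5.99 and 5.98 in the same order. Control was the lowest array for each of these 3, by 0.26 or less against cisplatin. As a class, the 7 assembly factors had medians of 0.26, 0.48 and 0.39 above control in cisplatin, astragalus and electro-acupuncture. Past 1.5-fold were 0, 2 and 3 genes, beside 7.16%, 14.5% and 11.2% of all genes. With the trend removed 0, 1 and 3 were, beside 6.32%, 9.24% and 9.42% of all genes. With 7 genes, counts this small are not read as a difference from the background.

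Promoter sequences from RefSeq (build GRCm38.p6, mouse), reaching from 250 bases before to 50 bases after a gene's start, were found for 38 of the 43 members. They were searched on both strands for the 10-base palindromic site of NRF1, CCGGAAG, the core of sites for ETS factors such as GABP, and AAGATGG, the core of sites for YY1, which are known regulators of respiratory genes. AAGATGG occurred in 7 of 38 members (18.4%) and in 7.28% of all 27025 genes with a promoter in the table. CCGGAAG occurred in 5 members (13.2%) and in 9.93% of all genes, and the NRF1 site in 2 members, Ndufaf4 and Ndufaf5 (5.26%) and in 1.07% of all genes. A match is a description of letters and not evidence of binding. The AAGATGG matches were all on the gene's strand, 23 to 39 bases after the start, and are shown with their flanks, in capitals, because they share this place (build GRCm38.p6).
Ndufs4 (chr13:114388045-114388067, minus strand): cctacaggAAGATGGcggcggtc
Ndufs6 (chr13:73328435-73328457, minus strand): tcaccggcAAGATGGcggcggtg
Ndufs7 (chr10:80249465-80249487, plus strand): ccgaggccAAGATGGcggcgctg
Ndufa9 (chr6:126849101-126849123, minus strand): tgtgggagAAGATGGcggccgcc
Ndufc1 (chr3:51408919-51408941, minus strand): tgcggaacAAGATGGcgccgtcc
Ndufa3 (chr7:3617387-3617409, plus strand): ccaagaacAAGATGGccgggagt
Ndufb8 (chr19:44555393-44555412, minus strand): agaaggtgAAGATGGctgcc

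Among these 7 genes the astragalus minus control difference ran from 0.22 in Ndufs7 to 1.48 in Ndufa9, with a median of 0.65, and in the 31 members with a promoter but no such match it ran from 0.03 to 2.07, with a median of 0.70. In electro-acupuncture the medians were 0.72 with and 0.53 without the match, and in cisplatin 0.14 and 0.26. The ranges of the members with and without the match overlap, and whether they differ was not tested.

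The 120 bases before the start are shown for the members with a CCGGAAG match there (in capitals), then for Ndufa9 and Ndufc2, which differed much between arrays, and for Ndufb2, which hardly differed; these 3 have no match in this stretch.
Ndufaf1 (chr2:119662835-119662954, minus strand): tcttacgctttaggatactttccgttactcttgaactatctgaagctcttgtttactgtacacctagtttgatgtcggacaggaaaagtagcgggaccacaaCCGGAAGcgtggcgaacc
Ndufs3 (chr2:90904722-90904841, minus strand): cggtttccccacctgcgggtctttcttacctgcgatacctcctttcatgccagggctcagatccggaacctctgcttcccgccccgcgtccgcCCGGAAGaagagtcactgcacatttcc
Ndufb7 (chr8:83566638-83566757, plus strand): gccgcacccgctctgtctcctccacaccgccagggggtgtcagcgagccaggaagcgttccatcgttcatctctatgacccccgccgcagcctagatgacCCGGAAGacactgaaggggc
Ndufa9 (chr6:126849145-126849264, minus strand): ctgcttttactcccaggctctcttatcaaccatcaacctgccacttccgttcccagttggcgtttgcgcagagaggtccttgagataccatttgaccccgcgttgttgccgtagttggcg
Ndufc2 (chr7:97399883-97400002, plus strand): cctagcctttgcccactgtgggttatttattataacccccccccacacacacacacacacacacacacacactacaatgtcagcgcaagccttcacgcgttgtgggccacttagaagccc
Ndufb2 (chr6:39592445-39592564, plus strand): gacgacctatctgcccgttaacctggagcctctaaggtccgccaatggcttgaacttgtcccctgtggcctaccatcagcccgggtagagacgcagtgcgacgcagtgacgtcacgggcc

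The CCGGAAG matches of Ndufaf1, Ndufb7 and Ndufs3 begin 18, 20 and 27 bases before the start, on the gene's strand, and the NRF1 site of Ndufaf4 begins 113 bases before its start. The 5 members with CCGGAAG, which also include Ndufb6 and Ndufs8, had a median astragalus minus control difference of 0.89 against 0.63 in the 33 without it, an electro-acupuncture median of 0.53 against 0.56 and a cisplatin median of 0.48 against 0.22. The ranges overlap here too (0.65 to 1.06 with and 0.03 to 2.07 without in astragalus), and whether they differ was not tested. Over 40 promoters of the 38 members, the G and C share of this stretch had a median of 61.7%, against 54.2% over all 32851 promoters.

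Other genes of the pathway were read from lists of assembly factors without the Ndufaf name, quinone synthesis, regulators and further respiratory complexes. Of 12 such assembly factors with a value, 1 was at least 1.5-fold higher than control in astragalus, beside 14.5% of all genes. It was Aifm1 (apoptosis-inducing factor, which acts in import of respiratory proteins), at 7.62 in control, 7.83 with cisplatin, 8.50 with astragalus and 8.33 with electro-acupuncture. In the other direction Dmac2, listed under its older symbol Atp5sl, was at 6.17, 5.88, 5.52 and 5.78, or 1.57-fold lower in astragalus than in control. Acad9 and Ecsit, which work with Ndufaf1, were at 6.47 and 6.26 in control and at 6.50 and 6.41 in astragalus. The list's medians of 0.06, 0.13 and 0.11 against control in cisplatin, astragalus and electro-acupuncture lay under those of the Ndufaf genes. That difference between lists was not tested.

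The 3 subunits of mitochondrial DNA with a value could hardly be compared. ND3 and ND6 were at the ceiling of the values, 19.93, on all 4 arrays. ND2 was at 18.23 in control, 19.79 with cisplatin, 16.30 with astragalus and 17.71 with electro-acupuncture. It was highest in cisplatin, close to the ceiling, and lowest in astragalus, where 0 of the 43 nuclear genes had their lowest level.

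Of the 12 genes of ubiquinone synthesis with a value, only Coq5 was at least 1.5-fold higher than control in astragalus, beside 14.5% of all genes. Coq5, a methyltransferase of that pathway, was at 6.21 in control and 6.81 in astragalus. The list's medians were -0.07, 0.08 and 0.05 in cisplatin, astragalus and electro-acupuncture. Among 11 regulators of respiratory genes 0 reached 1.5-fold in any of the 3 comparisons with control, in either direction. Of all genes 7.16%, 14.5% and 11.2% were 1.5-fold higher and 4.19%, 6.57% and 6.88% lower. Tfam, which packages and transcribes mitochondrial DNA, was at 6.89 in control, 6.97 with cisplatin, 7.43 with astragalus and 7.30 with electro-acupuncture. Gabpa, the DNA-binding chain of GABP, was at 9.58, 9.51, 9.99 and 9.84, and Nrf1 at 7.77, 7.50, 7.78 and 7.40. Ppargc1a, a coactivator of these factors, was under the floor on all 4 arrays, at 4.92 to 5.11.

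By their medians, the 42 genes of complexes II to V differed from control in the same direction as complex I. Their medians against control were 0.28 with cisplatin, 0.85 with astragalus and 0.61 with electro-acupuncture. Past 1.5-fold were 10, 30 and 22 genes, beside 7.16%, 14.5% and 11.2% of all genes. At the upper end in astragalus were Atp5mpl, a small subunit of ATP synthase (12.21 in control, 14.40 with astragalus), and the cytochrome c oxidase genes Cox7a2 (10.34 and 12.46) and Cox5b (10.99 and 12.77). At the lower end were Cox7c (10.74 and 10.83), Cox7b (11.08 and 11.19) and Cox6c (8.49 and 8.64), of the same enzyme. With the trend removed 9, 18 and 19 genes passed 1.5-fold, where 6.32%, 9.24% and 9.42% of all genes did. The medians of the list were then 0.26, 0.47 and 0.56, beside 0.23, 0.46 and 0.50 for complex I. The 74 mitochondrial ribosomal protein genes had medians of 0.15, 0.35 and 0.31 as deposited. At least 1.5-fold higher were 4, 19 and 11 of them, or 4, 11 and 10 with the trend removed. Beside the same shares of all genes, the cisplatin counts were close to the background and the electro-acupuncture counts little above it. With the trend removed the medians of complex I thus lay beside those of complexes II to V. As deposited the complex I medians were lower, most so in astragalus, at 0.65 against 0.85. Also as deposited, the complex I medians lay above those of the ribosomal proteins, a comparison from which differences of level between the lists were not removed. Neither difference between lists was tested.

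**Figure D5:**
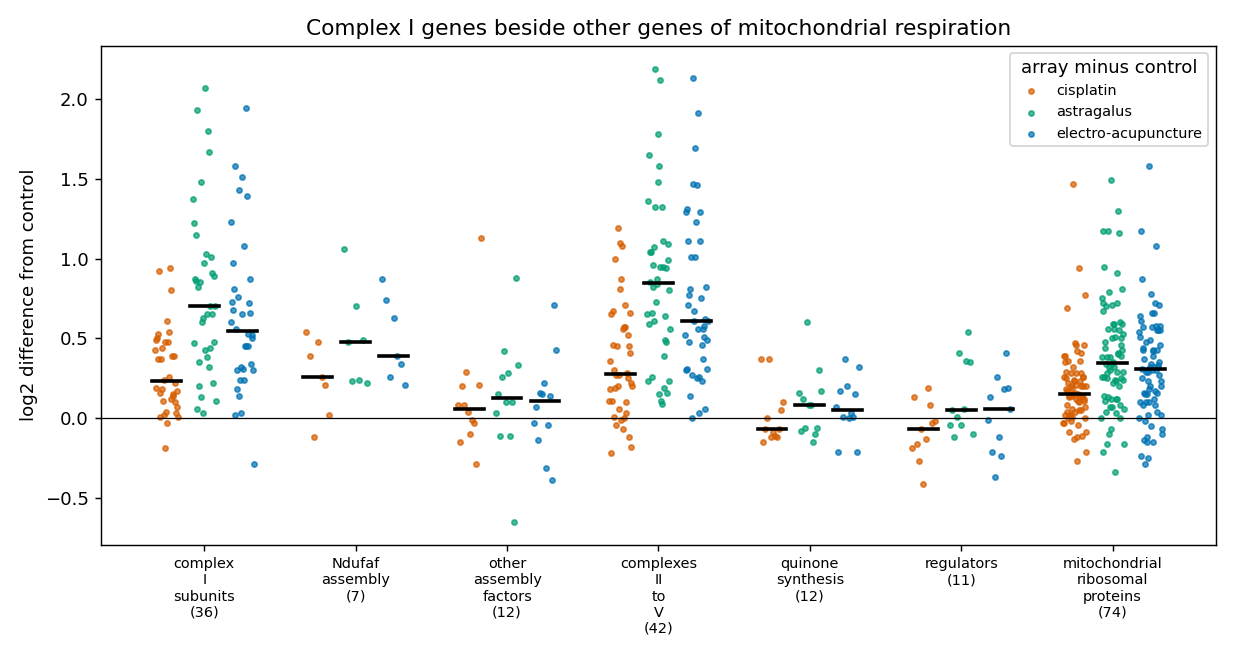
Log2 difference from control (y axis) for the complex I subunits and Ndufaf genes and 5 further lists (number of genes in brackets), 1 point per gene for cisplatin, astragalus and electro-acupuncture, with a black bar at each median. In astragalus and electro-acupuncture the complex I subunits and complexes II to V have the highest medians, while the medians of quinone synthesis genes and regulators lie between -0.07 and 0.08.

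Markers of marrow cells differed between the same arrays. Mpo, the peroxidase of early neutrophil granules, was at 11.70 in control, 12.80 with cisplatin, 13.75 with astragalus and 13.25 with electro-acupuncture. Elane, the elastase of the same granules, was at 10.34, 11.20, 11.93 and 11.70, so both were lowest in control and highest in astragalus. Other genes of the list had another order: Ltf (16.39, 16.11, 16.81 and 16.22) and Camp (18.29, 17.92, 18.42 and 18.29) were lowest in cisplatin, and Ngp lay between 18.77 and 18.78 on all arrays. The list of 7 neutrophil markers, all above the floor, had a mean level of 16.5, 16.7, 17.1 and 16.9, with S100a8 and S100a9 at the ceiling on every array. The 5 B cell markers with a value had their highest mean in control, at 9.12 against 8.08, 8.34 and 8.23. The 4 platelet markers were lowest in control, at 11.6 against 13.2, 13.3 and 13.2. Red cell precursor markers, 4 of 7 with a value, were at 12.1, 12.0, 12.5 and 12.1, and the 6 muscle markers at 5.31, 5.28, 5.26 and 5.23. Macrophage (4 genes), bone (4 genes) and fat (4 genes) lists had means of 5.46, 7.66 and 6.03 in control, 5.58, 10.2 and 6.91 in cisplatin, 5.55, 9.04 and 6.66 in astragalus, and 6.13, 8.50 and 6.68 in electro-acupuncture. The part of these cell types in the complex I values was not tested.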

How the data were processed

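RNA of mixed mouse marrow was hybridised to 1 Affymetrix array per group. The authors deposited 1 log2 value per transcript cluster, made with Affymetrix Expression Console per the submitters' processing notes; its version, the summary method and the genome build are not stated there. That the scale is log2 was taken from the range, 2.70 to a ceiling of 19.93.

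Of 65956 clusters, 32750 are in the platform's gene table, 30604 of them with 1 symbol; 2146 with several were not used. RefSeq (GRCm38.p6) supplied older symbols and promoters. Each gene takes its highest-mean cluster. Arrays were compared by subtracting log2 values; genes were counted at 1.5-fold and 2-fold. With 1 array per group nothing was tested, and the small number of arrays sets the precision. The lowess trend (fraction 0.3, statsmodels 0.14.6, Python 3.11.15) was fitted over genes at or above the floor and tested on simulated data.

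Members and lists were chosen with earlier results of these data known. Values are given for core, Ndufaf and Ndufa4 genes and the accessory genes with the 5 largest and 3 lowest differences from control; others named were chosen after their values were seen. Of the pathway lists, some but not all genes at the ends of the astragalus difference are named. Acad9, Ecsit and Nrf1 are named too, although they are not at those ends.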

Additional observations from a re-analysis of the deposited data

How the results depend on the processing

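For the complex I subunit genes (core and accessory, 36 genes) the median difference and the number at least 1.5-fold higher were recomputed under 7 alternatives in 5 comparisons. No median changed sign. Against control the astragalus median of 0.70 was 0.46 with the lowess trend removed, 0.54 after quantile normalization and 0.82 after median centring. The count of 23 was 15 with the trend removed, beside 14.5% and 9.24% of all genes. Against cisplatin the astragalus median of 0.42 was 0.23, 0.24 and 0.53 under the same settings in that order. The count of 12 was 5 with the trend removed, beside 9.39% and 4.43% of all genes. The cause was not tested. Median centring moved the median of all genes at or above the floor from 0.05 to 0.17 in astragalus minus control. All other medians stayed within 0.1 and counts within 1.5 times, including those with updated symbols (38 genes), with only members at or above the 75th percentile (34 genes) and without Ndufa4 and Ndufa4l2 (34 genes). The mean of a gene's clusters gave the same values, since no member has several. For single members, 6 and 7 of 43 changed sign in astragalus minus cisplatin under quantile normalization and trend removal, among them Ndufs1 and Ndufb7. No paired analysis was possible because each group has 1 array, and no array could be left out.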

Other observations

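Updating the platform's symbols through RefSeq adds 3 Nduf genes that the platform lists under older names. Ndufaf8, an assembly factor that acts with Ndufaf5, was at 7.67 in control, 7.71 with cisplatin, 7.72 with astragalus and 7.64 with electro-acupuncture, with all 4 arrays close together. Ndufb4c, another copy related to Ndufb4, was at 7.57, 7.96, 8.87 and 8.62 in the same order, with control lowest and astragalus highest as for Ndufb4b. Ndufa11b was at 5.56, 5.75, 6.18 and 6.13, again lowest in control.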
